A study of Mus musculus with 2 samples.

Results

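The 43 genes described here encode the machinery of mitosis: cyclins and kinases, ubiquitination factors, centromere and kinetochore proteins, spindle and cytokinesis proteins, and chromosome proteins. They were taken by symbol from the gene list of the deposited tables, and 43 of 43 were found among 27998 genes. The cells came from the buccal mucosa, the lining of the cheek, of 10 pooled C57BL/6 mice, which were 12 weeks old, untreated as far as the labels say, and female. Cells with a high surface level of CD104 (the β4 integrin of the basal layer, gene Itgb4) were sorted, and the suspension was divided into 2 technical libraries for droplet single-cell RNA-seq. There was therefore 1 independent sample and no treatment group. Each value below is given for library 1 and then library 2, no p-value was computed, and 95% intervals cover counting error only.

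All groups were groups of cells from that one suspension. A cell was used if it showed 500 genes or more and if mitochondrial genes gave no more than 10% of its UMIs (unique molecular identifiers, which mark single captured transcripts). Cells were divided by the summed UMIs of the mucosal keratins Krt4 and Krt13 per 10000 UMIs of the cell: keratin-low under 80, keratin-intermediate from 80 to under 350, and keratin-high at 350 or more. Krt4 and Krt13 are the paired keratins that oral keratinocytes make as they leave the basal layer. Cells with at least 4 UMIs per 10000 of the replication genes Mcm3, Ung, Hells and Dtl were taken as S phase. None of the 43 genes entered these divisions.

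Mitosis is prepared in G2, when Cdk1 bound to B-type cyclins becomes active, chromosomes condense and the centrosomes part. Kinetochores then attach the chromosomes to spindle microtubules under a checkpoint, and the anaphase-promoting complex ends the process by marking cyclin B and securin for destruction. In stratified epithelia such as the cheek lining, division is known mainly from the basal layer, and cells that move upward stop dividing and switch keratins. Most mitotic genes are transcribed in G2 and early mitosis, and the residual transcripts pass to the daughter cells. The question put to the cells was which of these transcripts remained after division or in cells committed to differentiation.

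The libraries held 7215 and 9076 barcodes, of which 6907 and 8563 were kept, with a median of 7690 and 6709 UMIs, and 96 kept barcodes occurred in both. The basal genes Krt5 and Krt14 were present in keratin-low cells outside S at 3286 and 3032 and 8721 and 8874 CPM (counts scaled to a total of 1000000 UMIs). Itgb4 itself, the basis of the sort, stood at 129.8 and 116 CPM in keratin-low cells and 12.8 and 11.7 CPM in keratin-high cells. Summed endothelial and melanocyte markers stayed at or under 3.26 CPM in every group examined. Immune markers summed to between 13.7 and 923 CPM and fibroblast markers to between 7.43 and 240 CPM over the groups. The immune sum was 382 and 923 CPM in keratin-low and 18.5 and 21.7 CPM in keratin-high cells outside S, and its part in the results was not tested beyond leaving out the 25 and 40 immune cells.

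The summed transcripts of the 43 genes were 13.7-fold and 14.6-fold lower in keratin-high than in keratin-low cells outside S. The sum stood at 7271 and 8068 CPM in keratin-low, 5526 and 5772 CPM in keratin-intermediate and 531 and 552 CPM in keratin-high cells. The log2 difference between keratin-high and keratin-low was -3.78 (-3.80 to -3.75) and -3.87 (-3.89 to -3.85) with intervals in parentheses. The difference between keratin-intermediate and keratin-low was -0.40 (-0.41 to -0.38) and -0.48 (-0.49 to -0.47), under the size rule used throughout, which asks for 1.5-fold or more in the same direction in both libraries. Keratin-high cells held more RNA, with a median of 14726 and 11984 UMIs against 6427 and 5369.5 in keratin-low cells. Counted per cell rather than per UMI, the 43 genes gave 51.9 and 48.7 UMIs in keratin-low and 8.45 and 7.44 UMIs in keratin-high cells.

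The sum was bimodal from cell to cell, and the bins differed in the share of their cells in the upper mode. A sum of at least 20 UMIs per 10000 was reached by 40.6% (39.0 to 42.3) and 45.1% (43.5 to 46.7) of keratin-low cells outside S. It was reached by 35.5% (33.4 to 37.7) and 36.4% (34.4 to 38.3) of keratin-intermediate cells and by 2.41% (1.68 to 3.33) and 2.68% (2.02 to 3.47) of keratin-high cells. In S phase the share was 72.8% (66.6 to 78.4) and 72.3% (66.3 to 77.7) in keratin-low and 60.6% (42.1 to 77.1) and 59.5% (47.9 to 70.4) in keratin-intermediate cells. S-phase cells were few outside the keratin-low bin: 33 and 79 in the keratin-intermediate bin, and 0 and 2 in the keratin-high bin, where no S comparison could be made.

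**Figure D1:**
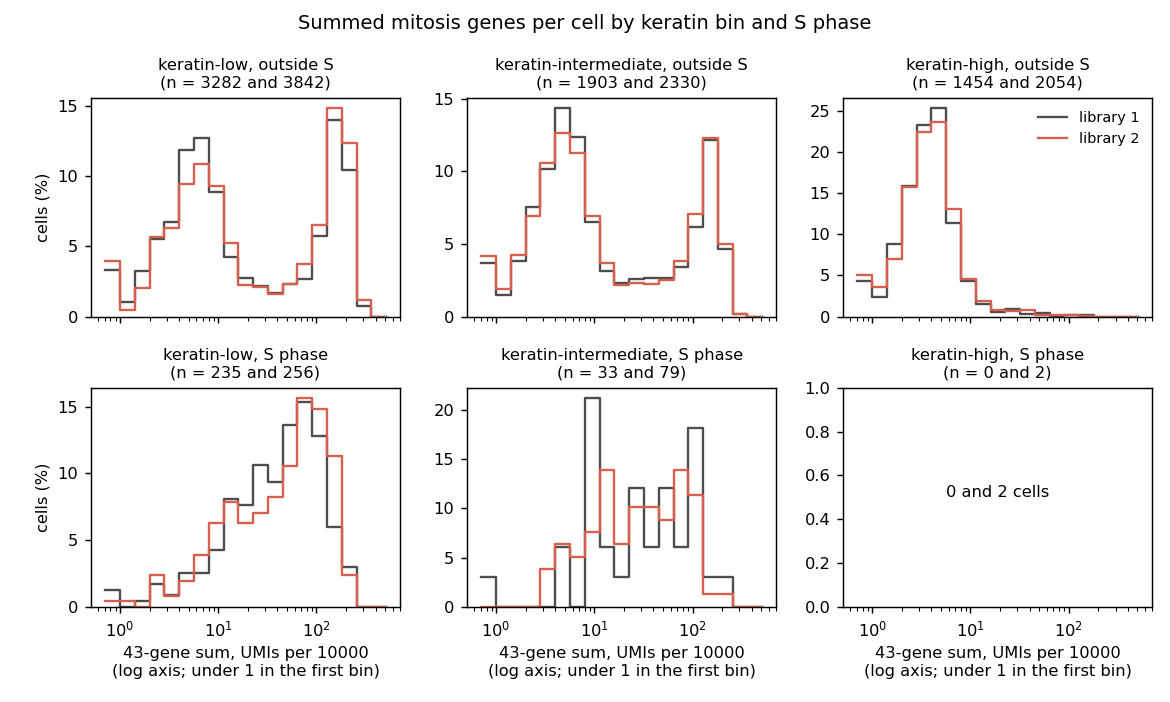
Distribution over cells of the summed UMIs of the 43 genes per 10000 UMIs of the cell (log axis), as a percent of the cells of each keratin bin and cycle phase, one line per library. Outside S the keratin-low and keratin-intermediate cells form a lower and an upper mode, the keratin-high cells only a lower mode with a thin tail, and S-phase cells are spread between the modes.

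To follow the members through the end of division, cells outside S were graded by 46 other mitotic genes, such as Racgap1, Kif20a and Bub1b, none of them among the 43. The grade was none with 0 UMIs of these genes, low under 4 per 10000, middle from 4 to under 10 and high at 10 or more. Grade-high cells numbered 1731 and 2286 and held 85.7% and 86.0% of all UMIs of the 43 genes. Grade-middle cells numbered 632 and 784, and grade-none cells 1466 and 2048. The 43 genes summed to 14744 and 14613 CPM in grade-high, 1963 and 1959 CPM in grade-middle and 488 and 489 CPM in grade-none cells. Grade-low cells, 2810 and 3108 in number, stood at 508 and 509 CPM.

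Along a finer keratin scale, chosen after the data were seen, the share of grade-high cells stayed between 32.5% and 43.9% in every range from 0 to 160 per 10000. It was 17.5% and 18.4% from 160 to 350, 1.38% and 1.71% from 350 to 700 and 1.13% and 0.306% above. The share of S-phase cells was 8.24% and 9.23% from 0 to 20, 7.92% and 6.80% from 20 to 40 and 4.91% and 5.16% from 40 to 80. From 80 to 160 it was 2.41% and 5.79%, in library 2 no lower than in the range before. Grade-middle cells thinned out more slowly, at 9.40% and 10.9% from 160 to 350 and 4.74% and 5.35% from 350 to 700. Beyond 350, grade-middle cells thus outnumbered grade-high cells, by 48 to 14 and 75 to 24 in the range from 350 to 700, where below 160 grade-high cells were always the more numerous. The grade counts UMIs per 10000, and keratin-high cells held more UMIs in total. Grade-high cells had a median of 13.9 and 15.1 grading-gene UMIs per 10000 in the keratin-high bin, against 41.6 and 41.1 in the keratin-low bin. Whether larger totals moved mitotic cells to grade middle was not tested.

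**Figure D2:**
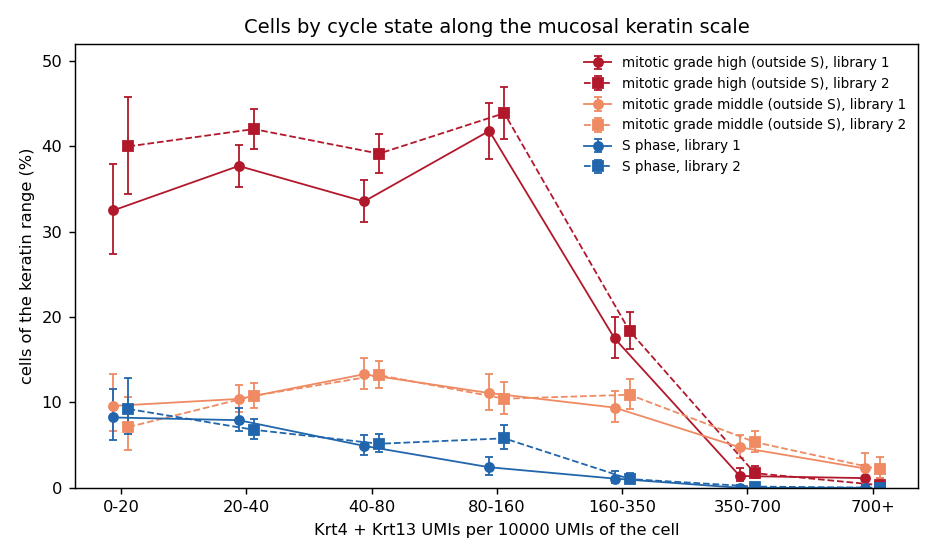
Percent of cells in grade high, grade middle (both of cells outside S) and S phase (of all cells) by Krt4 + Krt13 UMIs per 10000, with 95% Clopper-Pearson intervals, circles and squares for libraries 1 and 2. The grade-high share lies between 32.5% and 43.9% up to 160 and falls to 1.38% and 1.71% from 350 to 700, where 4.74% and 5.35% of cells are grade middle.

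Each of the 43 genes was lower in keratin-high than in keratin-low cells outside S in both libraries, the least lowered being Hmgb2. By the size rule, which also needs a mean of at least 20 CPM over both groups, 38 were tested and 38 were lower. Members under 20 CPM in keratin-high cells reached this minimum only through their keratin-low level, which favours a lower call. Examples are Top2a at 18.1, Mki67 at 8.83 and Gas2l3 at 1.97 CPM as means of the libraries. The same limit holds for the comparison with keratin-intermediate cells and for the counts by role below. Of all 5079 genes tested, 29.0% were lower and 9.73% higher, and the median log2 difference of all tested genes was -0.27 against -4.23 for the members. With median-of-ratios scaling in place of CPM, which moves that median, the calls over all genes turned from 494 higher and 1475 lower to 1304 higher and 627 lower, while 38 members were still lower. Against keratin-intermediate cells, 33 members reached the minimum and 33 were lower in keratin-high cells, where 15.6% of all genes were lower and 4.98% higher. With median-of-ratios scaling 33 were still lower, and the calls over all genes turned from 241 higher and 753 lower to 598 higher and 281 lower. In the comparison with keratin-low cells Bub1, Ndc80, Nek2, Dlgap5 and Ttk fell under the minimum level, and their log2 differences ran from -4.33 and -4.89 for Bub1 to -3.51 and -3.78 for Ttk.

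Among the 12 cyclins, kinases and their regulators, 9 were tested and 9 were lower in keratin-high cells. Cdk1, the kinase that drives entry into mitosis, stood at 288 and 305 CPM in keratin-low, 214 and 221 in keratin-intermediate and 19.1 and 17.9 in keratin-high cells outside S. Its partner cyclin B1, Ccnb1, stood at 287 and 354, 232 and 250.3 and 15.3 and 17.8 CPM in the same order. Cyclin B2, Ccnb2, gave 159 and 180.2, 131 and 125 and 7.43 and 8.68 CPM. The keratin-high levels of all 3 lay far under those of the other bins, and the keratin-low and keratin-intermediate levels differed by less than 1.5-fold. Aurka, the kinase of the spindle poles, was among the least lowered, at log2 -3.93 and -3.77. The 2 factors of the anaphase-promoting complex were both lower: Ube2c, its ubiquitin-conjugating enzyme, fell from 485 and 558 to 30.1 and 32.0 CPM. Cdc20, its activator in mitosis, fell from 318 and 346 to 20.2 and 21.0 CPM.

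Of the 8 centromere and kinetochore genes, 7 were tested and 7 were lower, and they ranged widely. Cenpf, a large outer kinetochore protein, gave 285 and 296 CPM in keratin-low and 11.7 and 10.3 CPM in keratin-high cells, a log2 difference of -4.61 (-4.79 to -4.43) and -4.84 (-5.01 to -4.67). The kinetochore motor Cenpe was similar at log2 -4.35 and -4.80. Cenpw, a small protein of the inner kinetochore, was one of the least lowered at log2 -3.12 (-3.37 to -2.88) and -3.16 (-3.39 to -2.93), from 59.0 and 58.0 to 6.79 and 6.51 CPM. The interval of Cenpw did not overlap that of Cenpf in either library. Cenpa, the histone H3 variant that marks centromeres, gave 332 and 369.8 CPM against 17.3 and 20.5 CPM. Cdca8, the borealin subunit of the chromosomal passenger complex, gave log2 -3.73 and -3.59.

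The 12 spindle genes had the lowest median, log2 -4.47 over the 11 tested, and 11 were lower. Kif20b, a kinesin of late mitosis, was the most lowered of all 43 in library 1 and as a mean of the libraries, at log2 -5.15 (-5.59 to -4.74) and -4.89 (-5.24 to -4.57), from 74.96 and 86.0 to 2.12 and 2.89 CPM. In library 2 Ect2 was more lowered. The microtubule-depolymerising kinesin Kif2c gave log2 -4.76 and -4.56, the hyaluronan-binding spindle protein Hmmr -4.55 and -4.55, the microtubule-binding protein Nusap1 -4.46 and -4.58 and the bipolar-spindle kinesin Kif11 -4.26 and -4.71. Their counts in keratin-high cells were low, for example 49 and 80 UMIs for Kif20b over 1454 and 2054 cells. The least lowered of the 11 tested were Ckap2 at -3.31 and -3.46, Ckap2l at -3.51 and -3.49, both microtubule-associated proteins of the spindle, and Tacc3 at -3.66 and -3.81.

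All 4 cytokinesis genes were lower. Ect2, the exchange factor that activates RhoA at the division plane, gave log2 -4.40 and -5.04, and Kif23, the centralspindlin motor, -3.77 and -3.91. All 3 chromosome genes were lower too, but unequally. Top2a, the topoisomerase that untangles sister chromatids, went from 377 and 392 to 17.9 and 18.2 CPM, and Mki67, the coat protein of mitotic chromosomes, from 129 and 129 to 9.77 and 7.88 CPM. Hmgb2, a DNA-bending chromatin protein, went from 1629 and 1837 to 200.1 and 207 CPM, log2 -3.02 (-3.07 to -2.98) and -3.15 (-3.19 to -3.11). Hmgb2 therefore made up 22.4% and 22.8% of the UMIs of the 43 genes in keratin-low cells and 37.7% and 37.6% in keratin-high cells. Without it the sum fell from 5642 and 6232 to 331 and 345 CPM.

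**Figure D3:**
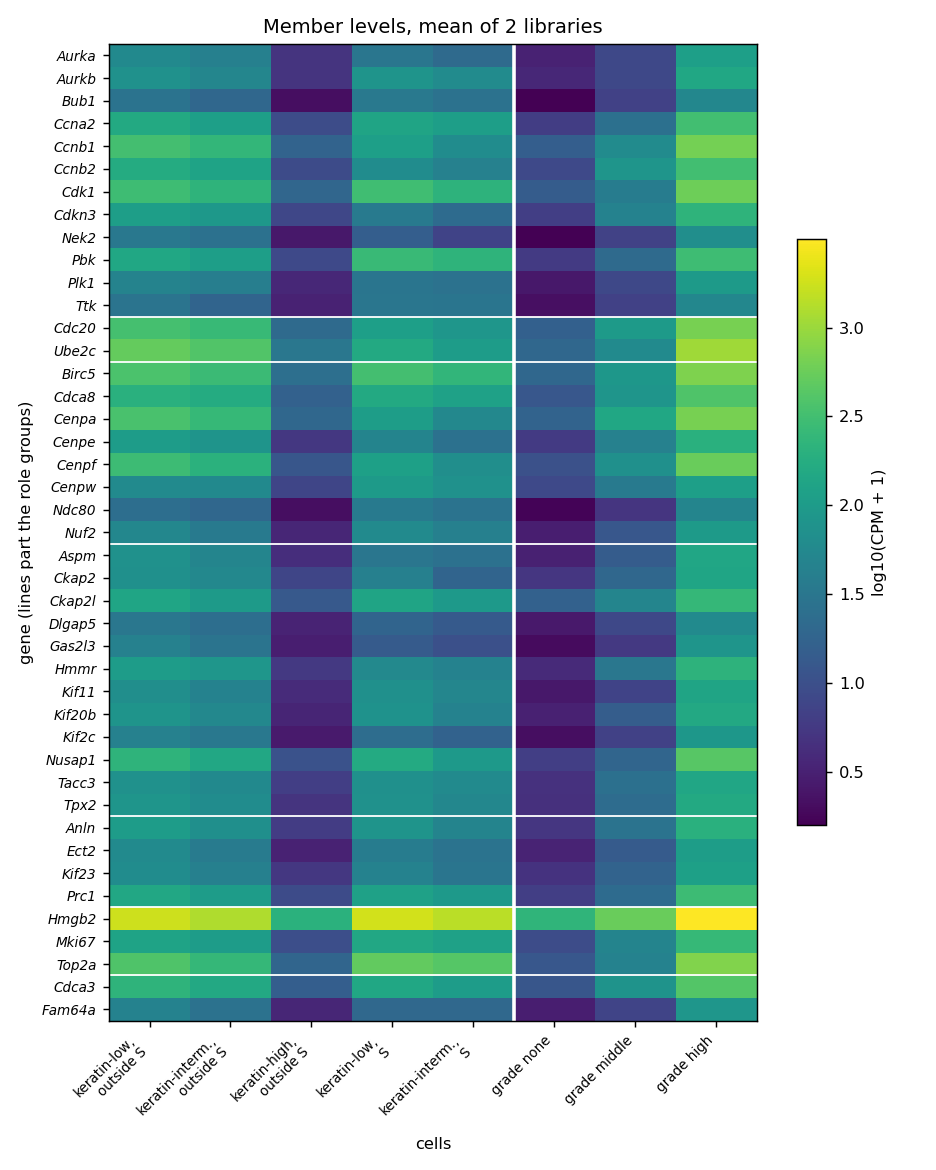
Level of each of the 43 genes (log10 of CPM + 1, mean of 2 libraries) in the keratin bins outside and in S phase (left of the white line) and in cells outside S of the mitotic grades none, middle and high (right), with white lines between role groups. Dark cells are low levels: within each row the keratin-high and grade-none columns are the darkest, and from keratin-low cells outside S to keratin-low S phase Pbk and Cenpw become lighter and Ube2c and Cenpa darker.

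Since the members moved together, their promoters were looked at for the cell cycle homology region (CHR), the element through which the DREAM and MuvB complexes are known to act on late cell cycle genes, and for the CCAAT box bound by NF-Y. RefSeq windows of 300 bases on GRCm38.p6, from 250 before to 50 after the start site, were matched for 37 of 43 members. Aurkb, Ccna2, Dlgap5, Fam64a, Pbk and Tpx2 had no entry. The letters TTTGAA, read on both strands, occurred in 28 of 37 members (75.7%) against 20.2% of 27025 genes. CCAAT occurred in 29 (78.4%) against 41.1%, and both motifs in 24 (64.9%) against 8.97%. The E2F letters TTCCCGC or TTGGCGC occurred in 4 (10.8%) against 7.79%. Matches may overlap and were counted for each motif on its own, a gene counted once if any of its windows held the letters. Such a match is a description of the letters and not evidence of binding.

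The last 120 bases before the start site are shown for 5 members that stand for different behaviours below, with CHR and CCAAT letters of either strand in capitals. Top2a (chr11:99024190-99024309, minus strand) and Cdk1 (chr10:69352913-69353032, minus strand) were not lower in keratin-low S phase than outside it. Ube2c (chr2:164769809-164769928, plus strand) and Cdc20 (chr4:118437344-118437463, minus strand) were lower there, and Hmgb2 (chr8:57511723-57511842, plus strand) was the member least lowered in keratin-high cells.
Top2a: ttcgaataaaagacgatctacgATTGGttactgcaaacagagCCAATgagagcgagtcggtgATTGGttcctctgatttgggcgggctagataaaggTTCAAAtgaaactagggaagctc
Cdk1: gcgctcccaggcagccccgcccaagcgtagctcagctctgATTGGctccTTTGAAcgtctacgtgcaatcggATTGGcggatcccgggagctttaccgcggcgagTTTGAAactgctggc
Ube2c: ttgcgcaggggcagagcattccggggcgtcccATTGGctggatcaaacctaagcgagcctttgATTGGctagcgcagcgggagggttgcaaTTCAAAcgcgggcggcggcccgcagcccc
Cdc20: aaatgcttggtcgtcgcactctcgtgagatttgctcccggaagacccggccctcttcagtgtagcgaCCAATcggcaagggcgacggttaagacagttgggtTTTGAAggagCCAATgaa
Hmgb2: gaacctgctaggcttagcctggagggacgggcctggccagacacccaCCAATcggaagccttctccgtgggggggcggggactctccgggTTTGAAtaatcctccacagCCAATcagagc
All 5 held a CHR within 30 bases of the start site, at -23 in Top2a, -15 in Cdk1, -29 in Ube2c, -18 in Cdc20 and -30 in Hmgb2, counted to the motif's first base. All 5 also held at least 2 CCAAT boxes in this stretch. Since each of the 5 chosen members held both motifs, they could not show whether these letters separate the S-phase members from the others. The remaining members were not compared in this way.

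The summed level in keratin-intermediate cells lay under that in keratin-low cells by less than 1.5-fold. It was uneven within the bin, at 7621 and 8159 CPM from 80 to 160 and 3879 and 3904 CPM from 160 to 350, and with bounds of 160 and 700 the summed log2 difference was -1.97 as a mean of the libraries. Of 43 tested, 5 were lower than in keratin-low cells (6.85% of all genes were) and 0 higher (4.17%): Fam64a at log2 -0.77 and -0.79, Ect2 at -0.73 and -0.65, Ttk, a spindle checkpoint kinase, at -0.67 and -0.71, the cytoskeletal linker Gas2l3 at -0.59 and -0.65 and Top2a at -0.61 and -0.62. The least changed were Cenpw at 0.03 and -0.11, Plk1, the polo-like kinase of mitotic entry, at -0.18 and -0.26, and Cdca8 at -0.20 and -0.27. The count of 5 was not stable: it was 35 without cells of over 2 times the library's median UMIs, 39 with bounds of 160 and 700, 0 with bounds of 40 and 180, 1 with median-of-ratios scaling (over all genes 347 higher and 241 lower in place of 224 and 368), and 11 and 8 in library 2 and library 1 alone.

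Grade-high cells of the keratin-intermediate bin held nearly the same mitotic profile as those of the keratin-low bin. Here 0 of 43 were higher or lower by the size rule, against 4.53% of all genes lower and 3.38% higher (246 and 184 genes, or 184 and 249 with median-of-ratios scaling), and the summed log2 difference was -0.20 (-0.21 to -0.19) and -0.20 (-0.22 to -0.19). Single members ran from -0.57 and -0.51 for Fam64a to 0.20 and 0.12 for Cenpw. Grade-high cells in the keratin-high bin were rare, 19 and 26 cells. In them 40 of 43 members were lower than in grade-high keratin-low cells and 0 higher, against 17.6% and 7.52% of all genes, with a summed log2 difference of -1.30 (-1.35 to -1.24) and -1.24 (-1.29 to -1.19). With median-of-ratios scaling 37 were lower, and over all genes 599 lower and 555 higher in place of 933 and 399. Fam64a, Cenpw and Ckap2 were not called, at -1.57 and -0.52, -1.15 and -0.40 and -0.94 and -0.55.

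These few cells also held the most UMIs. Their median was 21041 and 16550.5 UMIs against 8164 and 6810, and 73.7% and 76.9% of them exceeded 2 times their library's median, against 4.65% and 3.21% of grade-high keratin-low cells. Counted per cell, the members gave 137 and 120.3 UMIs in the keratin-high and 137 and 113 UMIs in the keratin-low bin as a mean. The medians per cell were 104 and 93.5 UMIs in the keratin-high and 128 and 105 UMIs in the keratin-low bin. Without cells over 2 times the median 22 members were lower, with bounds of 40 and 180 it was 9, and with grade high set at 15 it was 20. A doublet caller marked 1 barcode in each library, too few to have worked, so no doublets were removed, and their part in these cells was not tested.

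In S phase the members ranged from higher to far lower than outside it. In keratin-low cells, 2 of 43 were higher in S than outside it (5.46% of all genes were) and 19 were lower (2.34% were), while the summed log2 difference was -0.35 (-0.37 to -0.32) and -0.32 (-0.35 to -0.29). The reference for this comparison, keratin-low cells outside S, is itself a mixture in which 35.4% and 40.6% of cells were grade high. The 2 higher members were Pbk, a kinase active in mitosis, at log2 0.91 (0.76 to 1.06) and 0.87 (0.73 to 1.01), and Cenpw at 0.71 (0.47 to 0.94) and 0.78 (0.53 to 1.02). Pbk stood at 241 and 292 CPM in S against 128 and 159.7 CPM outside, and Cenpw at 96.4 and 99.6 against 59.0 and 58.0 CPM. The next highest were Ndc80 of the microtubule-binding kinetochore complex (0.65 and 0.50), Top2a (0.37 and 0.40), the checkpoint kinase Bub1 (0.20 and 0.34), Mki67 (0.18 and 0.20), Nuf2, the partner of Ndc80 (0.11 and 0.21), and Hmgb2 (0.14 and 0.10), none of which passed 1.5-fold in both libraries.

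The most lowered in S were Cdkn3, Gas2l3, Ube2c and Cenpa. Cdkn3, a phosphatase acting on cyclin-dependent kinases, gave log2 -1.81 and -1.67, and Gas2l3 gave -1.48 and -1.98. Ube2c stood at 143 and 176 CPM in S against 485 and 558 CPM outside, log2 -1.77 (-1.96 to -1.58) and -1.67 (-1.84 to -1.49). Cenpa stood at 99.3 and 118 against 332 and 369.8 CPM, log2 -1.74 (-1.97 to -1.52) and -1.65 (-1.87 to -1.44). Cdc20, Ccnb1, Ccnb2 and Cenpf followed, between -1.54 and -1.52 for Cdc20 and -1.40 and -1.25 for Cenpf. By role, both factors of the anaphase-promoting complex were lower, as were 6 of 12 cyclins and kinases, 6 of 12 spindle genes, 3 of 8 kinetochore genes, 1 of 4 cytokinesis genes, 1 of the 2 without a group (Fam64a) and 0 of 3 chromosome genes. Within the kinetochore group Cenpw rose while Cenpa, Cenpe and Cenpf fell.

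In keratin-intermediate cells, 1 of 40 tested members was higher in S (7.31% of all genes) and 12 were lower (3.01%). With median-of-ratios scaling 1 was higher and 14 lower, and over all genes 314 higher and 273 lower in place of 396 and 163. Pbk was again the higher one at log2 1.22 and 0.69, and Cenpa the most lowered at -1.86 and -2.77, followed by Cdkn3 (-1.79 and -2.34), Ube2c (-1.59 and -2.39) and Ccnb1 (-2.12 and -1.77). Cenpw was at 0.31 and 0.41 here, under 1.5-fold. These values rest on 33 and 79 S cells. Both S comparisons have their own reference, so a difference between the bins was not tested.

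Set against the level in grade-high cells, which lay outside S, a member held a median of 35.9% in S-phase cells, with a wide range. Of all S-phase cells, 64.2% and 61.1% reached the same bound of the grading genes, so the 2 groups are not separate states by that measure. The highest were Pbk at 87.3% and 86.0%, Cenpw at 78.1% and 86.1%, Ndc80 at 69.2% and 68.0% and Top2a at 64.5% and 65.3%. The lowest were Ube2c at 13.4% and 14.1%, Cdkn3 at 13.4% and 14.7%, Gas2l3 at 17.4% and 11.3% and Cenpa at 14.6% and 14.9%. Both chromosome genes next to Top2a were in the upper part, Mki67 at 55.5% and 55.7% and Hmgb2 at 56.0% and 57.6%. The order of the 43 was alike in the libraries (Spearman's rho across genes 0.974, a description, since genes are not independent replicates and the libraries share their cells' source).

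Cells without any transcript of the 46 grading genes held little of any member. As a mean of the libraries, the median member stood at 2.16% of its grade-high level in grade-none cells, 37 of 43 were under 3%, and 0 of 43 reached 10%. This percent is called retained below, but the grade does not tell whether a cell had divided recently. Grade-none cells also had few UMIs, with a median of 5990.5 and 5504.5 against 8919.5 and 8079.5 in grade-low cells. The most retained were Hmgb2 at 7.42% and 7.22%, Cenpw at 7.75% and 5.36%, Ckap2l at 6.04% and 6.67%, Mki67 at 3.27% and 3.27%, Kif23 at 3.24% and 3.22%, Ckap2 at 3.06% and 3.14%, Cdca8 at 2.89% and 3.02%, Dlgap5, a spindle-assembly protein, at 2.45% and 3.08%, Cdca3 at 3.01% and 2.46% and Birc5, the survivin subunit of the passenger complex, at 2.68% and 2.66%. The least retained were Nek2, a centrosome kinase, at 0.541% and 1.26%, Gas2l3 at 0.896% and 1.39%, Bub1 at 1.29% and 1.06%, Kif11 at 1.16% and 1.23%, Kif2c at 1.13% and 1.36%, Nusap1 at 1.08% and 1.44%, Hmmr at 1.44% and 1.27%, Kif20b at 1.47% and 1.33%, Ndc80 at 1.48% and 1.38% and Top2a at 1.48% and 1.62%.

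Free RNA in the droplets can add UMIs to any cell, so the same genes were measured in a cell type of another lineage, 49 immune cells (median 8025 and 6970.5 UMIs) that passed the sort, lay outside S and were not grade high. These cells carried 4063 CPM of Krt13 and 1696 CPM of Krt14, and the 43 genes summed in them to 633 CPM (554 to 720), or 441 CPM (376 to 515) without Hmgb2. By grade, 4 of the 49 were grade middle and held 65 of the 231 member UMIs, while the 20 grade-none immune cells summed to 513.6 CPM (399.6 to 649.9), or 365 CPM (269.8 to 482) without Hmgb2. Grade-none cells of the whole sample stood at 488 and 489 CPM, or 257 and 260.4 CPM without Hmgb2, and keratin-high grade-none cells at 394 and 394 CPM. In grade-none cells 0 of 43 members exceeded the interval measured in immune cells, and the matching share over all genes was not computed. Even a member with 0 UMIs in the immune cells had an upper limit of 10.1 CPM. A member under that level, such as Bub1 at 0.61 CPM in grade-none cells, therefore could not exceed the interval. For Cenpa the immune value was 46.6 (27.1 to 74.6) CPM against 18.2 and 15.6 CPM in grade-none cells. For Hmgb2 it was 192 (149.5 to 242) against 231 and 228 CPM, with 301 and 318 CPM in the keratin-low and 177 and 177 CPM in the keratin-high part. Taken by keratin, 1 of 43 exceeded it in keratin-low grade-none cells, and that was Hmgb2, while 0 of 43 did in keratin-high grade-none cells. Hmgb2 was also the only member to reach 20 CPM in this comparison, and it was lower in keratin-high than in keratin-low grade-none cells, as were 20.5% of all genes (9.21% were higher). With median-of-ratios scaling it was not called, and the calls over all genes turned from 460 higher and 1022 lower to 956 higher and 511 lower. The 49 immune cells summed higher for the 43 genes than grade-none cells did, but not for Hmgb2. For the 20 grade-none immune cells, the interval of the sum included the values of all grade-none cells. It also included those of keratin-low grade-none cells, 597 and 643 CPM. Without Hmgb2, that interval lay above the values of all grade-none cells. How much was free RNA and how much the immune cells' own was not tested, so these values set no lower limit for a residue.

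Shares of cells with a UMI were compared after every cell was thinned to 3000 UMIs. At least one UMI of Top2a was found in 3.34% and 3.81% of grade-none cells (7.64% and 7.18% before thinning) and 78.1% and 76.1% of grade-high cells. In the immune cells the thinned share was 0% and 3.33%, where 0 of 19 cells allows a share of up to 15.8% by the limit of 3 counts and the other library had 30 cells. Before thinning it was 21.1% and 6.67%. Hmgb2 was found in 59.9% and 59.1% of keratin-low grade-none and 42.5% and 38.7% of keratin-high grade-none cells, against 42.1% and 23.3% of immune cells. A UMI of any of the other 42 members was found in 51.7% and 53.9% of grade-none cells and in 84.2% (60.4 to 96.6) and 53.3% (34.3 to 71.7) of immune cells. Before thinning these shares were 75.4% and 75.5% and 94.7% and 83.3%. After thinning, the grade-none share for the 42 members was under the immune share in library 1 and within its interval in library 2. With Hmgb2 included, the thinned shares were 76.5% and 77.2% of grade-none cells. Those of immune cells were 89.5% (66.9 to 98.7) and 56.7% (37.4 to 74.5). The grade-none share was then within the immune interval in library 1 and above it in library 2.

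In grade-middle cells the members differed from each other. They held the 43 genes at 4.02-fold and 4.01-fold the sum of grade-none cells, and the median member at 11.4% and 11.8% of its grade-high level, while the grading genes themselves stood at 15.9% and 16.3% of theirs. Of the members, 18 of 43 lay above the interval of the 49 immune cells, of which only 4 were grade middle. Those 4 immune cells summed to 2107 CPM (1626 to 2686) for the 43 genes, against 1963 and 1959 CPM in all grade-middle cells. The share of all genes above the immune interval was not computed. The most held were Cenpw at 29.6% and 30.9%, Ccnb2 at 24.1% and 27.3%, Cenpa at 22.6% and 22.0%, Cenpe at 21.5% and 22.6%, Cdca8 at 20.1% and 21.5%, Cdkn3 at 19.7% and 21.7%, Ckap2l at 19.3% and 20.6%, Mki67 at 19.8% and 18.4%, Cdca3, an adaptor of mitotic ubiquitination, at 18.7% and 18.9% and Tacc3 at 21.0% and 14.7%. The least held were Nusap1 at 4.15% and 4.26%, Kif11 at 6.08% and 3.68%, Aurkb, the passenger-complex kinase, at 4.09% and 5.98%, Gas2l3 at 5.72% and 5.23%, Ube2c at 5.98% and 5.17%, Top2a at 5.48% and 6.62%, Cdk1 at 6.08% and 6.47%, Aurka at 6.38% and 6.33%, Kif2c at 6.22% and 7.30% and Pbk at 6.23% and 7.88%. The order was alike in the libraries (rho 0.945 across genes).

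This order was not that of S phase, with rho -0.0761 across the 43 genes. Pbk and Top2a, near the top in S, were near the bottom here, with a grade-middle level of 0.0714 and 0.0916 and 0.0849 and 0.101 times the S level. Cenpa was the reverse at 1.55 and 1.48 times, and Cdkn3 and Ccnb2 stood at 1.47 and 1.47 and 1.44 and 1.39 times. Cenpw was high in both, and Ube2c and Gas2l3 low in both. By role the median member held 16.9% among kinetochore genes and 17.5% among chromosome genes, against 8.63% among cyclins and kinases and 10.7% among spindle genes. Replication genes used as a check of the S call summed to 503 and 489.7 CPM in grade-middle, 248 and 249.9 in grade-none, 1239 and 1275 in grade-high and 3721 and 3845 in S cells. Cells on their way into mitosis and cells that have left it cannot be told apart by the grade alone.

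**Figure D4:**
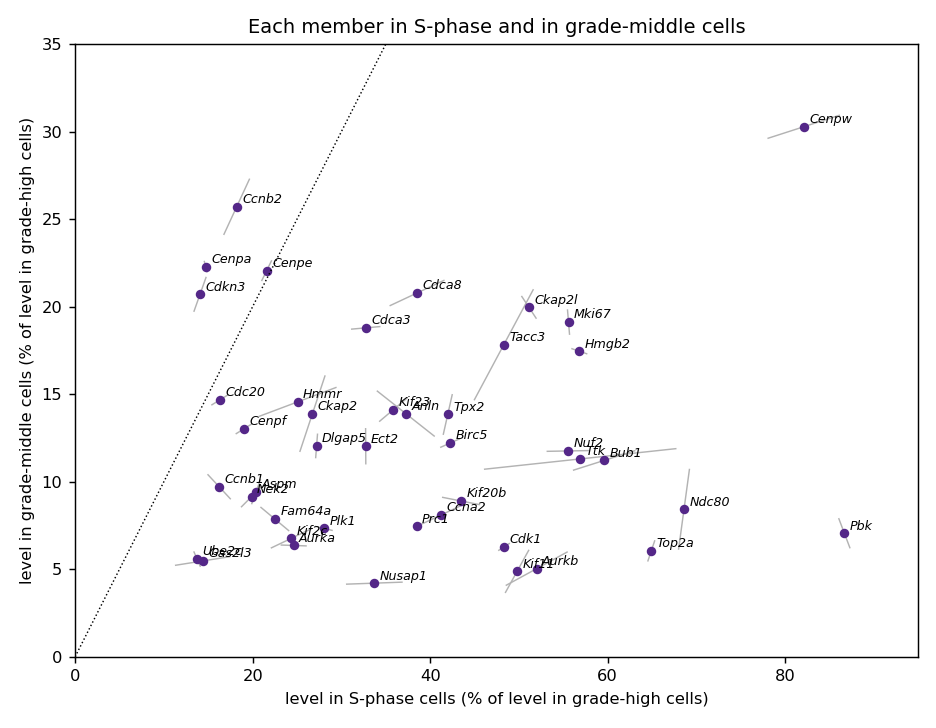
Level of each of the 43 genes in grade-middle cells outside S against its level in S-phase cells, both as a percent of its level in grade-high cells. Points are means of 2 libraries, grey lines join the libraries and the dotted line marks equal percents; Cenpa, Cdkn3 and Ccnb2 lie above the line, Pbk and Top2a far below it at the right, and Cenpw is high on both axes.

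Cell by cell, Cenpa was found without Top2a in 180 of 632 (28.5%) and 211 of 784 (26.9%) grade-middle cells. The reverse, Top2a without Cenpa, held for 52 (8.23%) and 65 (8.29%). In grade-high cells, where most cells had both, these shares were 8.95% and 9.14% against 5.43% and 7.09%. The Cenpa-only and Top2a-only cells of the middle grade had median depths of 6513 and 7308 UMIs in library 1 and 5577 and 5678 UMIs in library 2. Before thinning, Cenpa had a UMI in 37.5% and 33.5% and Top2a in 17.2% and 14.9% of grade-middle cells. After thinning, a UMI of Cenpa was found in 24.8% and 23.6% and one of Top2a in 7.91% and 7.91% of grade-middle cells, against 19.8% and 18.4% and 62.7% and 52.5% of S-phase cells.

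The profile of grade-middle cells differed with keratin level. In keratin-low (380 and 446 cells) and keratin-intermediate cells (194 and 249) it was as described, while in keratin-high cells (58 and 89) it was flatter. Cenpa stood at 23.1% and 23.3% of its grade-high level in keratin-low, 28.5% and 28.0% in keratin-intermediate and 8.90% and 8.99% in keratin-high middle cells. Ccnb2 stood at 22.5% and 27.7%, 35.9% and 36.4% and 5.01% and 11.1%, and Cenpw at 27.9% and 28.3%, 40.6% and 42.8% and 12.4% and 17.2%. On this scale all 3 were highest in keratin-intermediate and lowest in keratin-high cells, in both libraries. Set against the grade-high cells of its own bin, Cenpa stood at 21.2% and 21.6% in keratin-low, 31.6% and 30.7% in keratin-intermediate and 22.9% and 18.3% in keratin-high middle cells. Ccnb2 stood at 21.4% and 25.3%, 37.6% and 40.9% and 13.7% and 25.5%, and Cenpw at 29.1% and 29.1%, 36.9% and 40.4% and 28.8% and 23.4% on that scale. For these 3 genes keratin-intermediate cells were still the highest, but keratin-high cells were no longer the lowest throughout. The median of the 43 members on that scale was 9.82% and 10.3% in keratin-low and 24.7% and 23.4% in keratin-high middle cells. The keratin-high values are set against only 19 and 26 grade-high cells. Top2a, again against all grade-high cells, was highest in keratin-high cells, with 4.55% and 4.32%, 5.86% and 5.68% and 7.61% and 13.5%, the last from only 43 and 95 UMIs. Ube2c gave 4.98% and 3.41%, 5.06% and 5.94% and 11.1% and 7.93%. The quartiles of the 43 percents were 2.92-fold and 2.77-fold apart in keratin-low and 1.56-fold and 1.65-fold apart in keratin-high middle cells.

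By the size rule, 24 members reached the minimum level, and 7 were lower in keratin-high than in keratin-low middle cells against 19.4% of all genes: Ccnb2 at log2 -2.17 and -1.31, Cenpe at -1.32 and -1.61, Cenpa at -1.37 and -1.37, Cenpw at -1.17 and -0.72, Cdkn3 at -0.68 and -0.73, Ckap2l at -0.82 and -0.59 and Cenpf at -0.64 and -0.61. Another 7 were higher against 8.16% of all genes: Pbk at 1.94 and 1.15, the midzone protein Prc1 at 1.38 and 1.03, Top2a at 0.74 and 1.64, Ube2c at 1.15 and 1.22, Nusap1 at 1.05 and 0.93, cyclin A2, Ccna2, at 0.998 and 0.93 and Cdk1 at 0.90 and 0.60. Pbk, Prc1, Nusap1 and Ccna2 stood at 12.2, 15.5, 14.8 and 17.8 CPM in keratin-low middle cells as means of the libraries. They reached the minimum of 20 CPM only through their keratin-high level, which favours a higher call. In the same way Cenpe and Cenpw, at 18.2 and 16.6 CPM in keratin-high middle cells, reached it through their keratin-low level. The higher calls were lost with the cells of high UMI number: without cells over 2 times the library's median, 0 members were higher and 9 lower. Scaling by the median of ratios gave 7 higher and 3 lower members, and 659 higher and 532 lower genes over all in place of 413 and 984. With bounds of 40 and 180, 4 were higher and 1 lower.

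**Figure D5:**
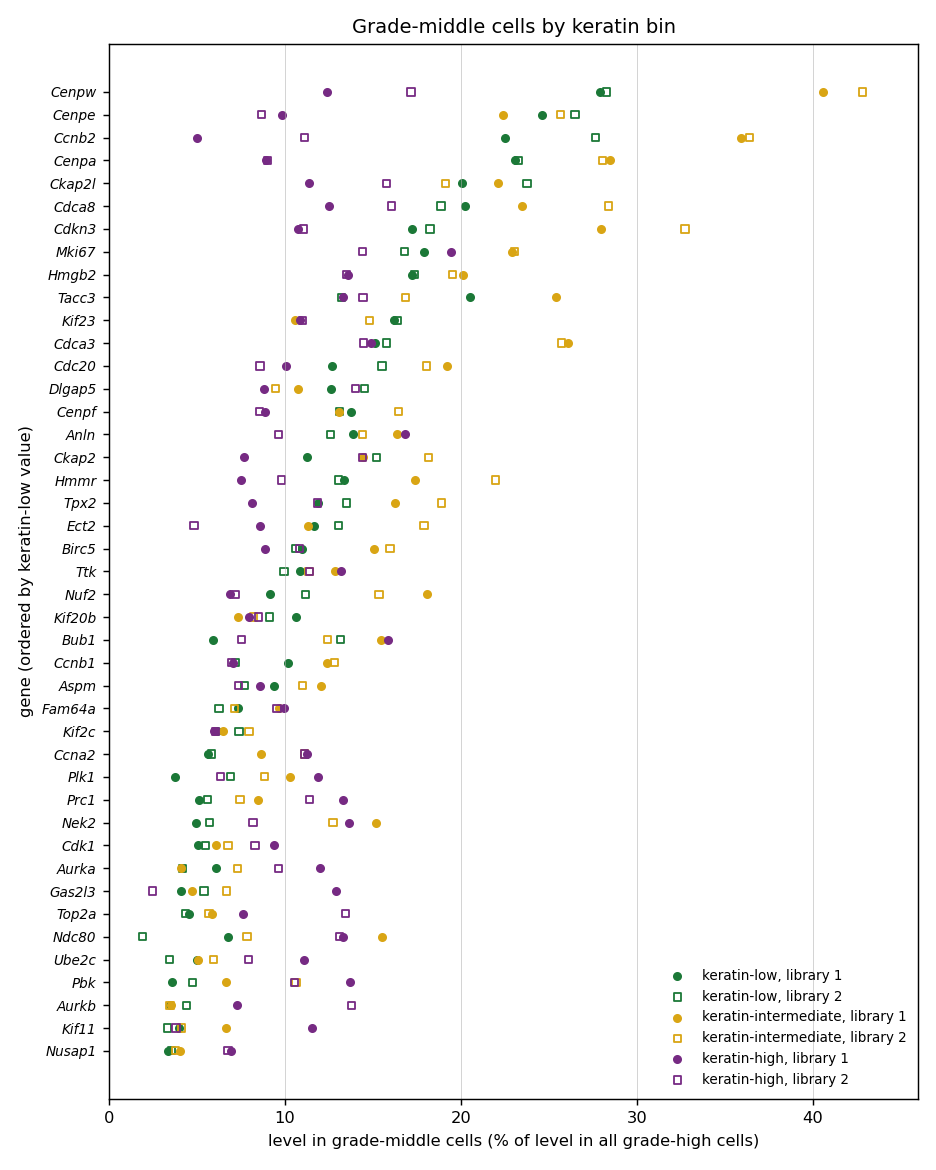
Level of each of the 43 genes in grade-middle cells of the keratin-low, keratin-intermediate and keratin-high bins, as a percent of its level in all grade-high cells (filled circles library 1, open squares library 2). Over both libraries keratin-low cells spread from 1.90% to 28.3%, keratin-intermediate cells from 3.47% to 42.8% and keratin-high cells from 2.47% to 19.5%.

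Other genes of division were lower in keratin-high cells to differing degrees, where 29.0% of all genes were lower. Of a list of 27 genes with broader roles in G2 and mitosis, 27 were tested and 24 were lower in keratin-high than in keratin-low cells outside S, led by Smc2 of condensin (-3.66 and -3.83), the microtubule destabiliser Stmn1 (-3.75 and -3.73), the checkpoint protein Mad2l1 (-3.61 and -3.72) and the nucleosome-binding Hmgn2 (-3.41 and -3.30). Of 12 tested subunits and regulators of the anaphase-promoting complex, 6 were lower, among them Fzr1, its activator in G1, at -1.45 and -1.59 and Cdc23 at -1.48 and -1.41, a smaller change than that of Cdc20 or Ube2c. Of 8 tested cohesin genes 7 were lower, led by the kleisin Rad21 at -2.34 and -2.40. In keratin-low S cells 5.46% of all genes were higher and 2.34% lower. Of 13 listed regulators of late cell cycle transcription and mitotic entry, 6 were tested and 4 were higher in keratin-low S cells. These were E2f1 at 3.14 and 3.09, E2f8 at 1.38 and 1.47, Pkmyt1 at 1.61 and 1.16 and Lin54 at 1.20 and 0.88. Only 1 of the 13 reached the minimum in keratin-intermediate against keratin-low cells outside S. A gene that reached it only through its S level was favoured for a higher call. Fbxo5, the inhibitor of the anaphase-promoting complex, was higher at 1.11 and 1.15, opposite in direction to Cdc20 and Ube2c. Of the 46 grading genes 34 were tested in keratin-low S cells, where 1 was higher and 5 were lower.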

How the data were processed

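The authors' deposited files hold UMI counts per gene and cell barcode for 2 technical libraries; per the submitters' processing notes they were made with Cell Ranger on mm10, versions not given in the sources used here. The members and lists were chosen with earlier results of these data known. Cells under 500 genes (0 barcodes) or over 10% mitochondrial UMIs (308 and 513 barcodes) were left out. Raw counts were summed per library and group of cells and divided by the group's total (CPM); the libraries hold 67962712 and 73935792 UMIs in all. The size rule asks for 1.5-fold in both libraries and a mean of 20 CPM, a count of 0 being set to 3 for the ratio, and was tested on simulated data. Intervals (95%) are exact Poisson for sums, Clopper-Pearson for shares and conditional binomial for ratios; PCR duplicates are removed by the UMI, and intervals and limits cover counting error only. Named in each comparison were the 8 members with the highest and the 8 with the lowest ratio, or fewer where few were called, the 10 most and 10 least retained, and up to 3 more per role; of other lists at most 4 genes. Levels were not compared between genes. Both libraries come from 1 suspension, so no p-value was given. Python 3.11.15, numpy 2.4.6, scipy 1.17.1, pandas 2.3.3 and scanpy 1.11.5 (Scrublet) were used. Alternatives covered scaling, level minimum, fold, thinning, mitochondrial limit, keratin and S bounds, grade bounds, means over cells, cells of high UMI number, immune cells and each library alone. The comparison within grade-middle cells, the grade-middle percents, the immune cells by grade and the finer keratin scale were added after seeing the data.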

Additional observations from a re-analysis of the deposited data

How the results depend on the processing

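Among recomputed summary values, 229 stayed within the limits set for them, 58 moved, 2 became weaker and 3 stronger; the cause of the changes below was not tested. With median-of-ratios scaling, 1 member was lower in keratin-intermediate cells, 3 were lower in keratin-high middle cells, and grade-none cells held a median of 2.29%. A minimum of 50 CPM, which tests fewer genes, left 1 lower in keratin-intermediate and 22 in keratin-high cells, with 2 higher and 3 lower in middle cells. A fold of 2 left 0 in keratin-intermediate cells, 0 higher in keratin-low S, and 3 and 3 in middle cells. Thinning left 2 higher in middle cells and medians of 2.28% (none) and 10.2% (middle). Bins set after thinning gave 0 higher, Cdk1 at -0.0624, and medians of 2.35%, 42.0% (S) and 10.5%. A mitochondrial limit of 5% gave 1 higher in S and medians of 2.01%, 32.3% and 13.6%. Keratin bounds of 40 and 180 gave 0 lower in keratin-intermediate cells. They gave a sum of -0.50 with 9 lower within grade high (Plk1 0.00231), and 4 higher and 1 lower in middle cells (Cenpw 0.0438, Cdkn3 0.40). Bounds of 160 and 700 gave -1.97 with 39 lower in keratin-intermediate cells, 1 higher in S and 2 higher in middle cells (Ube2c -0.0811). S at 2 gave medians of 2.09% and 44.9%. S at 8 gave -0.60 for keratin-intermediate S (Kif11 -0.99), 4 lower in middle cells and medians of 2.24%, 29.7% and 12.2%. Means over cells gave 8 lower in keratin-intermediate cells, 4 higher in S, 1 higher in middle cells and medians of 2.36% and 10.4%. Without cells of high UMI number the sum was -0.70 with 35 lower in keratin-intermediate cells, 22 lower within grade high, 0 higher in middle cells (Cdk1 -0.0108), and medians of 2.01% and 10.9%. Leaving out a library gave 8 to 11 lower in keratin-intermediate cells, medians of 1.97% to 2.03% in grade none and 11.4% to 11.8% in middle cells. Grade high at 6 gave 2 higher and 4 lower in middle cells and medians of 2.33%, 38.6% and 7.77%. Grade high at 15 gave -0.81 with 20 lower within grade high and medians of 2.07% and 16.2%. S against outside S in keratin-high cells could not be computed. No paired analysis was possible because both libraries belong to 1 group.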
